A study of Mus musculus with 18 samples.

Results

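Heme synthesis genes were compared between DBA/2J and C57BL/6J mice, 2 inbred strains, in whole brain, kidney and liver. The genes were those of the list Alad, Alas1, Alas2, Uros, Urod, Cpox, Ppox and Fech, with the heme-degrading gene Hmox1, that carried a symbol in the platform annotation. All 9 were found, each on 1 row, among 21765 rows and 15095 named genes. Each of 18 two-colour glass arrays, 6 per tissue, held RNA of a DBA/2J pool and RNA of a C57BL/6J pool. Brain and kidney pools held 10 mice each and liver pools 9, and the 6 arrays within a tissue repeat 1 pair of pools. The labels used here give neither age nor sex of the mice, and no treatment. A p-value here thus reflects how repeat hybridisations vary, and says nothing of the spread between mice.

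Heme is built from glycine and succinyl-CoA in a chain of enzymes that starts and ends in the mitochondrion and runs through the cytosol between. The entry step is catalysed by ALAS1 in most tissues and by ALAS2 in red cell precursors, and it sets the rate in liver, where heme supplies cytochromes P450. DBA/2J is known for a duplication of Alad and for high activity of its enzyme.

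Values are log2 ratios of DBA/2J over C57BL/6J after print-tip loess, a smoothing that removes the dependence of a ratio on spot brightness within each printed block, so a positive value is a higher level in DBA/2J. The orientation follows from the dyes in the labels and is likely rather than stated. Dyes were not swapped, so a dye effect particular to a spot and a strain difference cannot be told apart. Glo1, a detoxifying gene also duplicated in DBA/2J, bore on it: its brain ratio was 0.64 ± 0.13, its kidney ratio 0.77 ± 0.34 and its liver ratio 0.91 ± 0.14 (mean ± SD, n = 6 arrays), and it was above 0 on all 6 arrays of each tissue. As deposited, the array medians ran from -1.65 to 0.16. Ratios followed spot intensity most in kidney, with a correlation of up to 0.697, so the kidney values rest most on the loess step. Liver marker genes lay at a median intensity percentile of 99.2 on liver arrays, kidney markers at 98.6 on kidney arrays and brain markers at 87.7 on brain arrays, each above its value in the other tissues.

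The first question was whether the spot named Alad differed between the strains, as its copy number does. Whether this spot measured Alad RNA was not tested, and its brightness, given further below, goes against its name. Alad encodes delta-aminolevulinic acid dehydratase, the cytosolic enzyme that joins pairs of aminolevulinic acid molecules. No difference passed the threshold in any tissue (adjusted p under 0.05 over 20218 features, limma). In brain, arrays 1 to 6 gave Alad ratios of -0.07, 0.30, -0.02, 0.13, 0.04 and 0.26. In kidney they gave 0.11, -0.05, 0.04, -0.06, -0.11 and 0.20. In liver they gave 0.05, -0.12, 0.02, 0.25, 0.36 and -0.05. Arrays lay on both sides of 0 in every tissue. Brain averaged 0.10 ± 0.15 (SD, n = 6 arrays, adjusted p = 0.380), kidney 0.02 ± 0.12 (adjusted p = 0.813) and liver 0.09 ± 0.18 (adjusted p = 0.440). The 95% intervals reached up to 1.20-fold for brain, 1.12-fold for kidney and 1.19-fold for liver, so larger ratios of this spot lay outside them. Without loess, with only the array median subtracted, Alad rose in kidney (0.41, adjusted p = 0.000964), as did 6 other members. Under that setting 13113 of 20218 features were called in kidney.

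The gene next to Alad gave other values. Hdhd3 encodes a protein of the haloacid dehalogenase-like family and is the nearest named protein-coding gene on one side of Alad. The windows below show the 250 bases before the annotated start of both genes, since they are neighbours on 1 strand. Of the 2, Hdhd3 alone passed the threshold after print-tip loess, in kidney and liver. The windows are RefSeq sequences of the C57BL/6J reference, build GRCm38.p6, minus strand, written 5′ to 3′ and ending at the base before the start. Alad lies at chr4:62520064-62520313, where the table holds 2 starts and the upstream one is shown. Hdhd3 lies at chr4:62502201-62502450. Capitals mark matches to the GC box GGGCGG or to the clock factor E-box CACGTG, searched on both strands.
Alad: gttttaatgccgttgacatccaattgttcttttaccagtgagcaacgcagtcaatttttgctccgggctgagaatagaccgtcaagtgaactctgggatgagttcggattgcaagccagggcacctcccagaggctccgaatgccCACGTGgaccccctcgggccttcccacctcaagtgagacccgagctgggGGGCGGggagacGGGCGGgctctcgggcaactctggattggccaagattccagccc
Hdhd3: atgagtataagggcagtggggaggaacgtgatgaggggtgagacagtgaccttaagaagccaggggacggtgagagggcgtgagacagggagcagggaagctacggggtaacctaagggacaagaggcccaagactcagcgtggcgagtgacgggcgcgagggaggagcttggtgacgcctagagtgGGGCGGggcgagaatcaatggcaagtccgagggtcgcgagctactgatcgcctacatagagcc
The Alad window held 2 GC boxes, 56 and 44 bases before the start, and an E-box 105 bases before it. The Hdhd3 window held 1 GC box, 63 bases before the start, and no E-box. Among 32851 windows of the same length, 32.7% held the GC box and 6.02% the E-box. A match is a description of letters, and no binding was measured.

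Hdhd3 rose in DBA/2J kidney and liver. Its kidney ratios on arrays 1 to 6 were 0.76, 0.16, -0.14, 0.66, 0.60 and 0.73, so array 3 alone lay below 0. The liver ratios were 0.33, 0.54, 0.16, 0.65, 0.44 and 0.54, all above 0. The mean was 0.46 ± 0.37 in kidney, or 1.38-fold (adjusted p = 0.00424), 0.44 ± 0.18 in liver, or 1.36-fold (adjusted p = 0.00191), and 0.20 ± 0.13 in brain (adjusted p = 0.0802, and 0.0259 with the intensity left unrestored). The Hdhd3 spot was dim in liver, at intensity percentile 8.72. On the same arrays Hdhd3 exceeded Alad by 0.36 ± 0.24 in liver, on 6 of 6 arrays, by 0.44 ± 0.36 in kidney, on 5 of 6, and by 0.10 ± 0.17 in brain, on 5 of 6. An exact two-sided sign-flip permutation test gave p = 0.03125 in liver, the smallest that 6 arrays allow, 0.0625 in kidney and 0.1875 in brain. Adjusted over 6 such comparisons, which were chosen after the values were seen, these became 0.0469, 0.0750 and 0.188. Glo1 exceeded Alad on all 6 arrays of each tissue, the excess being 0.54 ± 0.24 for brain, 0.75 ± 0.34 for kidney and 0.82 ± 0.21 for liver, with adjusted p = 0.0469 in each case by the exact permutation test.

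Of the 10 named protein-coding genes on either side of Alad, 18 were on the arrays. Brain had 1 rise and 1 fall, kidney 5 rises and 1 fall, and liver 3 rises and 4 falls. Over all features the share called was 13.7% for brain, 43.3% for kidney and 23.1% for liver. The list medians were -0.05, 0.06 and -0.01. The liver count of 7 fell to 4 without array 1, 2 or 3, to 3 without array 6 and to 2 without loess. The kidney count of 6 became 11 when the intensity was not restored and 10 without loess. The brain count of 2 became 4 without array 1, and 1 without any 1 of the others. With dim features left out of the test, the brain count was 0. Of the nearest genes, Bspry rose in kidney (0.26 ± 0.135) and Wdr31 (0.04 in kidney) did not pass in any tissue, although with the intensity left unrestored it stood at 0.36 in kidney (adjusted p = 0.00292). On the far side, Pole3, a subunit of DNA polymerase epsilon, stood at -0.06, -0.04 and -0.06 in brain, kidney and liver, and at -0.23 in kidney with the intensity left unrestored (adjusted p = 0.0325). Rgs3, a regulator of G protein signalling, stood at 0.05, 0.09 and -0.04, but its 2 rows disagreed, with 0.44 and -0.27 in kidney, and its kidney value turned to -0.27 without loess. Zfp618 fell in liver (-0.24 ± 0.12, adjusted p = 0.0246), where its 3 rows gave -0.30, -0.42 and 0.00. That call ended without liver array 2 (-0.19) or 6 (-0.23), without loess (-0.23) and with 1 loess per array (-0.21), and its kidney value (-0.07) turned to 0.43 with the brightest row alone.

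Farther from Alad, the copper transporter gene Slc31a2 rose in brain (0.36 ± 0.03) and kidney (0.55 ± 0.14), where its spot was dim, at percentiles 2.18 and 2.46, and the kidney value turned to -0.066 without loess, while the brain value fell to 0.11 and missed the threshold (adjusted p = 0.521). The kinesin gene Kif12 (0.40 ± 0.22) and the ubiquitin ligase gene Rnf183 (0.32 ± 0.14) rose in kidney, but Rnf183 missed the threshold without loess (0.27), with the intensity left unrestored (0.09) or with 1 loess per array (0.036). In liver Cdc26, a subunit of the anaphase-promoting complex, rose (0.31 ± 0.22), while the collagen gene Col27a1 fell (-0.30 ± 0.14). Orm1, an acute phase plasma protein gene, rose in liver (0.38 ± 0.25), its main site of synthesis, and fell in brain (-0.27 ± 0.18, adjusted p = 0.0409), where its spot lay at percentile 3.85. The brain call of Orm1 ended without any 1 of arrays 2 to 6, with means from -0.31 to -0.21, and with 1 loess per array (-0.18). The call of Cdc26 ended without liver array 1, 3 or 6, with 0.28, 0.30 and 0.31, without loess (0.20) and with 1 loess per array (0.22). Col27a1 in liver missed the threshold without loess (-0.21, adjusted p = 0.0749).

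**Figure D1:**
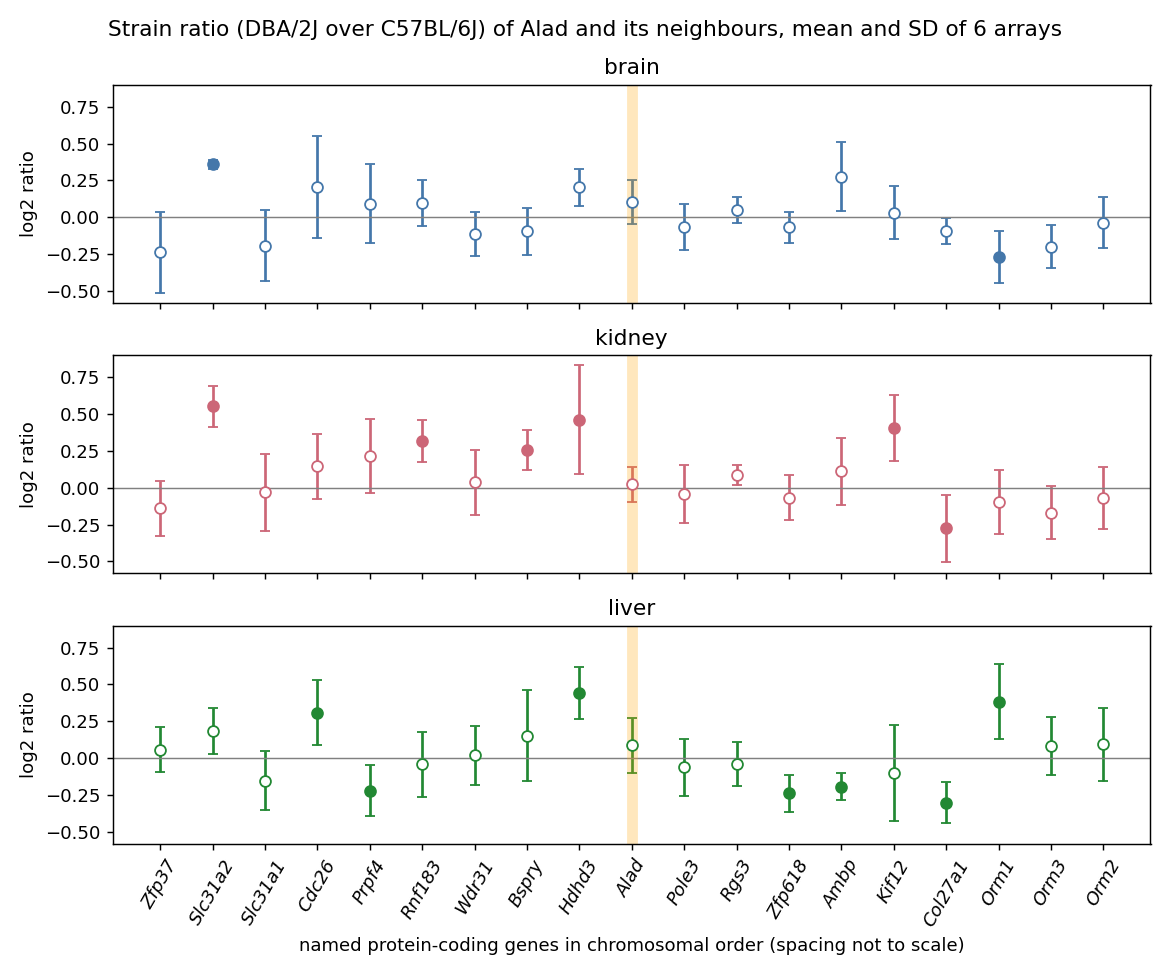
Mean log2 ratio of DBA/2J over C57BL/6J (points, with SD over 6 arrays) for Alad and the 18 neighbouring genes on the arrays, in chromosomal order, 1 panel per tissue. Filled points passed an adjusted p of 0.05. Alad, on the shaded bar, lies at 0.10, 0.02 and 0.09, and Hdhd3 beside it at 0.20, 0.46 and 0.44.

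After print-tip loess the entry enzyme showed the largest difference among the 9 genes, whereas without loess Cpox in kidney did (1.22). Alas1 encodes the housekeeping form of aminolevulinic acid synthase, the rate-limiting step of heme synthesis in liver. In kidney its ratios on arrays 1 to 6 were -0.35, -0.67, -0.52, -0.57, -0.60 and -0.35, all below 0. The mean was -0.51 ± 0.13 (SD, n = 6 arrays), so Alas1 was 1.42-fold lower in DBA/2J kidney (95% interval 1.29-fold to 1.58-fold, adjusted p = 7.48e-05), but with only the array median subtracted it turned to 0.26 (adjusted p = 0.0406). Loess took 0.77 from this bright spot, at percentile 97.1. Print-tip loess on the intensity left unrestored and 1 loess per array gave -0.49 and -0.55. With any 1 kidney array left out, the mean stayed between -0.54 and -0.48.

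In liver Alas1 gave -0.19, -0.14, -0.39, -0.04, -0.43 and -0.25 on arrays 1 to 6. All 6 values were below 0, and the mean of -0.24 ± 0.15 passed the threshold (1.18-fold lower, adjusted p = 0.0302). This call ended without liver array 1, 3, 5 or 6, with -0.25, -0.21, -0.20 and -0.24, and without loess (-0.21, adjusted p = 0.111). In brain the ratios were -0.00, -0.27, -0.06, -0.07, 0.03 and -0.41. They lay close to 0 on most arrays, and the mean of -0.13 ± 0.17 did not pass (adjusted p = 0.282). The difference of the Alas1 ratio between brain and kidney was 0.38 (SE 0.10, adjusted p = 0.00758), and it turned to -0.23 without loess. Between kidney and liver it was -0.27 (SE 0.10, adjusted p = 0.0539), passing without kidney array 1 or 6 or liver array 5 (-0.31 to -0.30) and turning to 0.47 without loess, and between brain and liver 0.11 (adjusted p = 0.599).

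Alas2 encodes the erythroid form of the same enzyme and is a marker of red cell precursors. The upstream windows of both genes are shown because the 2 forms catalyse 1 reaction in different cells. Capitals mark the GC box, TATAAA or the GATA site AGATAA on either strand. Alas1 lies at chr9:106247955-106248204 on the minus strand, where the table holds 2 starts and the upstream one is shown. Alas2 lies at chrX:150547167-150547416 on the plus strand (RefSeq, GRCm38.p6).
Alas1: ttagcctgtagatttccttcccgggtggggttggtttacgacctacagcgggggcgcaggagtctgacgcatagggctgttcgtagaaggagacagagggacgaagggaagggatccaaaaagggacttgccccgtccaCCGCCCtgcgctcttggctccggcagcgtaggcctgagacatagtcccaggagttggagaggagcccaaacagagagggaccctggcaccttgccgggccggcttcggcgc
Alas2: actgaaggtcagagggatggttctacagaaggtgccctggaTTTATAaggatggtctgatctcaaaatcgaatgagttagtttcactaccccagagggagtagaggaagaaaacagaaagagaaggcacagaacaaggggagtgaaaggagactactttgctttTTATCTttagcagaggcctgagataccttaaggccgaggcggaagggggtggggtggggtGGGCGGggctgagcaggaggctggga
The Alas2 window held a GATA site 86 bases before the start, TATAAA 209 bases before it and a GC box at 26 bases. The Alas1 window held 1 GC box, at 111 bases, and neither of the others. Of all windows 9.99% held the GATA site and 12.4% TATAAA. The antioxidant response core TGACNNNGC, found in 10.2% of windows, and the site of the factor NRF1, in 3.74%, were in none of the 4 windows. RefSeq promoters matched 7 of the 9 genes.

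In liver Alas2 gave 0.30, -0.18, 0.36, 0.35, 0.27 and 0.23 on arrays 1 to 6. Array 2 lay below 0 and apart from the others. The mean of 0.22 ± 0.20 did not pass the threshold (adjusted p = 0.0608), and without array 2 it was 0.30 (adjusted p = 0.00855). In kidney the ratios were -0.02, -0.05, -0.16, -0.17, -0.37 and -0.03, all below 0, with a mean of -0.13 ± 0.13 (adjusted p = 0.131). In brain the mean was -0.07 ± 0.19 (adjusted p = 0.581), at a dim spot (percentile 11.9). Brain against liver it differed by -0.30 (adjusted p = 0.0977), and by -0.38 without liver array 2 (adjusted p = 0.0205). The Alas2 ratio differed between kidney and liver by -0.36 (SE 0.11, adjusted p = 0.0199). That difference turned to 0.038 without loess, and did not pass with the intensity left unrestored (-0.17), with 1 loess per array (-0.34) or without kidney array 5 (-0.31).

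Red cell markers were read beside Alas2, since whole organs hold blood. In bulk RNA, fewer cells of a type and less RNA per cell cannot be told apart. Of 13 measured markers 2 rose and 2 fell in liver, 4 rose and 3 fell in kidney, and 0 rose and 1 fell in brain, where the count was 0 without brain array 6 and 2 without brain array 3. The shares over all features were 23.1%, 43.3% and 13.7%. The liver count of 4 fell to 2 without liver array 1, 3 or 4. The kidney count of 7 became 4 with dim features left out of the test. The mean ratio of the list on single arrays ranged from -0.07 to 0.06 in liver, -0.03 to 0.09 in kidney and -0.17 to 0.01 in brain. Hba-a1, an alpha globin gene, stood at percentiles above 99 in each tissue and fell in kidney (-0.69 ± 0.26) and brain (-0.53 ± 0.40), but its kidney value turned to 0.53 without loess. It gave -0.12 ± 0.18 in liver. The red cell membrane genes Rhag (0.53 ± 0.15), Rhd (0.46 ± 0.13) and Kel (0.38 ± 0.07) and the enzyme gene Bpgm (0.42 ± 0.12) rose in kidney, of which Kel turned to -0.13 and Bpgm came to 0.0053 without loess. Slc4a1 (-0.50 ± 0.16) and Ank1 (-0.25 ± 0.22) fell there. In liver Kel (0.36 ± 0.13) and Car1 rose, while Slc4a1 (-0.41 ± 0.17) and Rhag (-0.29 ± 0.21) fell. Rhag thus went opposite ways in kidney and liver. The part of blood in the ratios of Alas2 was not tested.

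**Figure D2:**
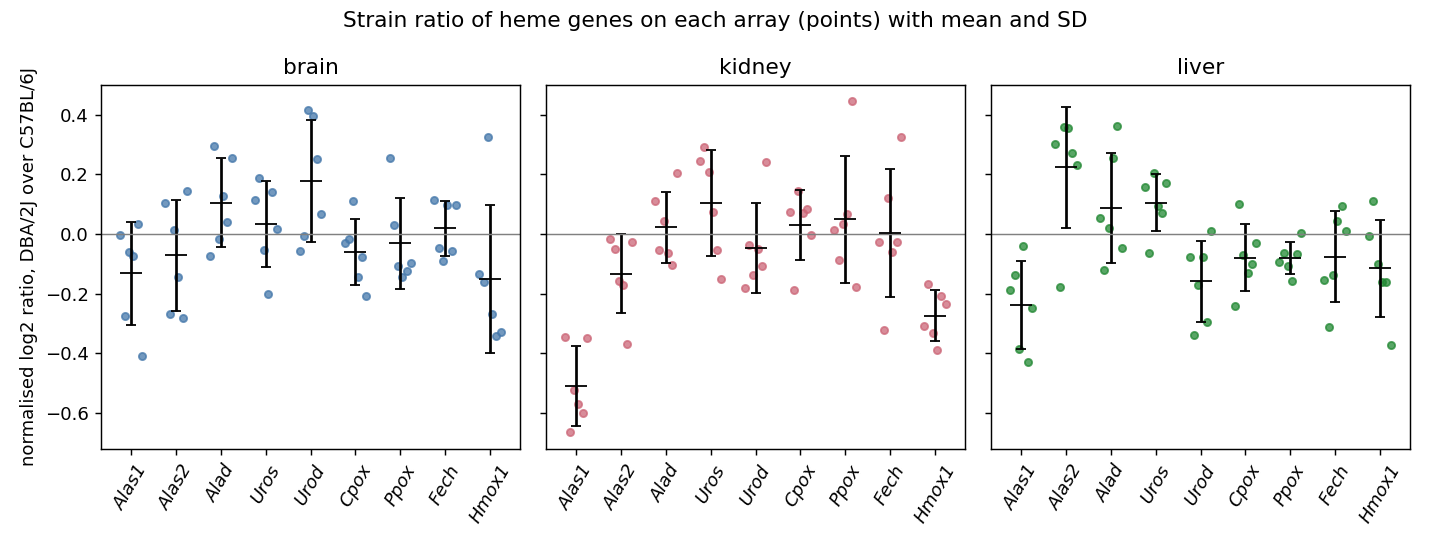
Normalised log2 ratio of DBA/2J over C57BL/6J for each of the 9 genes, 1 panel per tissue; points are the 6 arrays in replicate order, and the black bars give the mean and SD. Alas1 lies below 0 on all arrays of kidney (-0.67 to -0.35) and liver (-0.43 to -0.04), although its kidney mean turns to 0.26 without loess, and Hmox1 lies below 0 on all kidney arrays.

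The later enzymes of the pathway did not pass the threshold in any tissue after print-tip loess, and Cpox passed in kidney under each other normalisation that centres the arrays. Uros encodes the synthase that closes the tetrapyrrole ring. Brain averaged 0.03 ± 0.15, kidney 0.10 ± 0.18 and liver 0.10 ± 0.10, with adjusted p = 0.802, 0.281 and 0.261. The Uros arrays ranged from -0.20 to 0.29 over the tissues, and 13 of the 18 lay above 0.

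Urod encodes the decarboxylase that follows. In brain its ratios on arrays 1 to 6 were -0.06, -0.01, 0.42, 0.40, 0.25 and 0.07, and in liver -0.08, -0.34, -0.17, -0.08, -0.30 and 0.01. Brain lay mostly above 0 and liver mostly below, and array values of the 2 tissues overlapped. Brain averaged 0.18 ± 0.21 (adjusted p = 0.178), kidney -0.05 ± 0.15 (not past the threshold) and liver -0.16 ± 0.14 (adjusted p = 0.115). The brain ratio exceeded that of liver by 0.34 (SE 0.10, adjusted p = 0.0486). This difference missed the threshold under each other normalisation, with adjusted p from 0.0866 to 0.730, and without brain array 3, 4, 5 or 6 or liver array 1, 2, 3, 4 or 5, with differences from 0.29 to 0.36.

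Cpox, Ppox and Fech encode the mitochondrial oxidases and the ferrochelatase that inserts iron. Cpox gave -0.06 ± 0.11 in brain, 0.03 ± 0.12 in kidney and -0.08 ± 0.11 in liver, and its value farthest from 0 was -0.24, on a liver array. Its kidney spot, at percentile 99.2, lost 1.19 to loess, so that without loess it stood at 1.22 (adjusted p = 6.9e-07). With the intensity left unrestored Cpox stood at 0.20 in kidney (adjusted p = 0.0287), and with 1 loess per array at 0.30 (adjusted p = 0.0305). Ppox gave -0.03 ± 0.15, 0.05 ± 0.21 and -0.08 ± 0.05, with kidney array 5 at 0.44 as its highest value. Fech gave 0.02 ± 0.09, 0.00 ± 0.21 and -0.08 ± 0.15, and its kidney arrays spread from -0.32 to 0.33. Over the 3 tissues, the 95% intervals of these 3 genes lay between 1.17-fold lower and 1.16-fold higher in DBA/2J after print-tip loess. Without loess Ppox (0.50, adjusted p = 0.00331), Fech (0.52, adjusted p = 0.00258), Uros (0.42) and Urod (0.36) also passed in kidney, all higher in DBA/2J.

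Hmox1 encodes heme oxygenase 1, the inducible enzyme that opens the heme ring. In kidney its ratios on arrays 1 to 6 were -0.31, -0.17, -0.33, -0.39, -0.21 and -0.24, all below 0. The mean was -0.27 ± 0.08, or 1.21-fold lower in DBA/2J (95% interval 1.10-fold to 1.33-fold, adjusted p = 0.00353). The call ended without loess (-0.17, adjusted p = 0.150) and with the intensity left unrestored (-0.15, adjusted p = 0.0625). In brain the mean was -0.15 ± 0.25 (adjusted p = 0.283), where array 3 gave 0.32 against -0.34 to -0.14 for the rest, and in liver -0.12 ± 0.16 (adjusted p = 0.273). The Hmox1 ratio did not differ past the threshold between any pair of tissues, with adjusted p = 0.432, 0.891 and 0.306.

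Macrophages recycle heme and are rich in heme oxygenase 1. Of 9 measured macrophage markers 1 rose and 4 fell in kidney, where 43.3% of all features were called. The riser was the macrophage transcription factor gene Spic (0.25 ± 0.20, adjusted p = 0.0190), which turned to -0.32 without loess. The fallers were the mannose receptor gene Mrc1 (-1.12 ± 0.21), the haptoglobin-hemoglobin receptor gene Cd163 (-0.31 ± 0.16), Adgre1 (-0.27 ± 0.15) and Lyz2 (-0.18 ± 0.10). The mean ratio of the list lay between -0.28 and -0.12 on the 6 kidney arrays, and its median spot at percentile 15.8. Markers past the threshold in kidney were 1 with 1 loess per array, 8 without loess and 3 without kidney array 5. With dim features left out of the test, 1 kidney marker passed. In brain and in liver 0 rose and 1, Mrc1, fell, against 13.7% and 23.1% of all features, and the liver count was 2 without liver array 2. Without loess the brain and liver counts were 2 and 2, and with 1 loess per array 2 and 3. The liver count was 2 with the brightest row. The part of macrophages in the kidney ratio of Hmox1 was not tested.

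Counted together, 0 of the 9 genes passed in brain, against 13.7% of all features, 2 in kidney, against 43.3%, and 1 in liver, against 23.1%. At an unadjusted p under 0.05, limma called 0, 2 and 3. The share of all features at that cut-off was not counted, so these counts cannot be called many or few. The 3 adjusted calls (Alas1 in kidney and liver, Hmox1 in kidney) were lower in DBA/2J, while Alas2, at an unadjusted p of 0.0154 in liver, was higher. Of all features 6.21% were called lower and 7.46% higher in brain; the shares were 21.3% and 21.9% for kidney, 12.2% and 10.9% for liver. The 9 genes had a median ratio of -0.03 for brain, 0.00 for kidney and -0.08 for liver, with a median size of 0.07, 0.05 and 0.10 against 0.12, 0.17 and 0.13 over all features. All 6 arrays had the same sign for 0 members in brain, 3 in kidney and 1 in liver, against 18.2%, 37.1% and 25.0% of all features. Without loess the kidney count became 7, all higher. Of 20218 features 13113 were then called in kidney, 49.3% of them higher. Between tissues, 1 of 9 genes differed in each pair, against 25.3% of features for brain and kidney, 7.42% for brain and liver and 21.7% for kidney and liver.

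**Figure D3:**
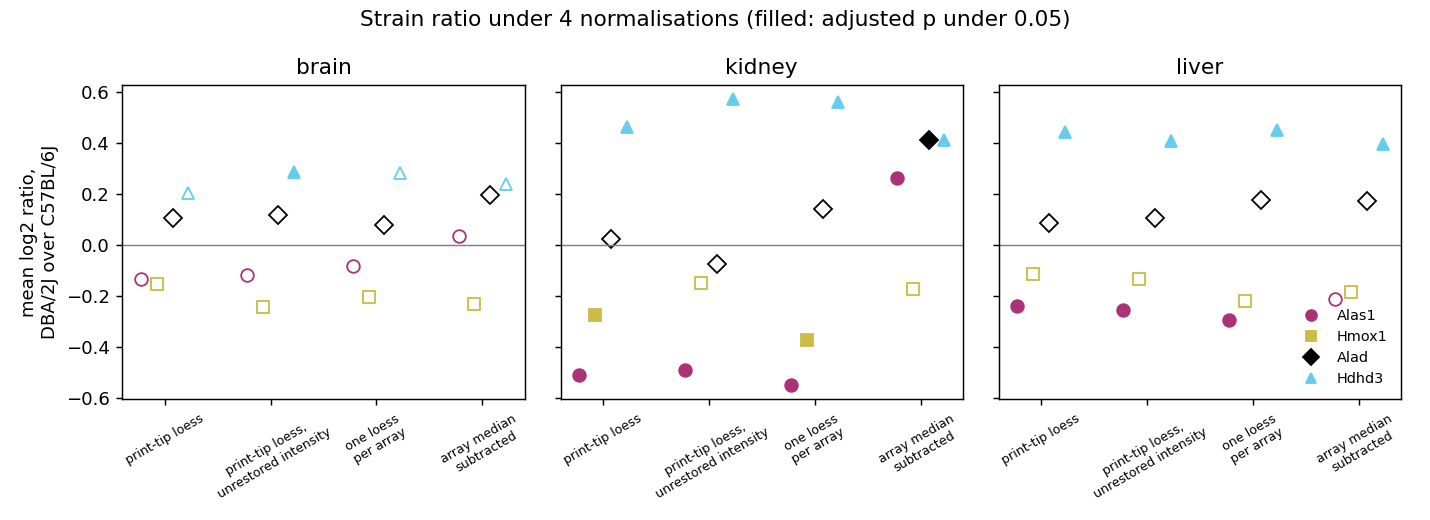
Mean log2 ratio of 6 arrays for Alas1, Hmox1, Alad and Hdhd3 under 4 normalisations, 1 panel per tissue; filled symbols passed an adjusted p of 0.05. In kidney Alas1 moves from -0.51, -0.49 and -0.55 with loess to 0.26 without, and Alad from 0.02 to 0.41, while Hdhd3 lies above 0 under these 4.

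Spot brightness gives a second view of the same genes, with both strains together. It was restored from the whole numbers behind each ratio, with the other arrays of the tissue as a guide, so the arrays are not independent, and it is described here without a test. The common factor of a spot is an estimate that can be wrong on single arrays, so the folds of brightness are approximate. Percentiles are those of a spot among all spots of its array. The Alas1 median was 80.8 for brain, 96.6 for kidney and 97.2 for liver, and its brain arrays did not overlap those of kidney or liver. On the scale of log2 intensity minus the array median, Alas1 was 3.07-fold brighter in kidney and 5.53-fold brighter in liver than in brain. Fech had medians of 20.2, 84.4 and 88.9, and its brain arrays overlapped neither those of kidney nor those of liver. Alas2 had medians of 10.0, 77.6 and 63.7, without overlap between brain and kidney. No fold is given for these brain spots, since how far they lay above background is unknown. Among all features 22.0% did not overlap between brain and kidney, 20.8% between brain and liver and 11.8% between kidney and liver.

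Urod was 1.96-fold brighter in kidney than in brain, without overlap, and its other pairs overlapped. Uros (medians 70.8, 71.1 and 67.5), Ppox (85.6, 87.9 and 78.0) and Hmox1 (42.95, 65.97 and 70.56) overlapped between every pair of tissues. So did Cpox, which was bright throughout (96.5, 98.95 and 98.7). Alad ran the other way. Its brain median was 80.8, its kidney median 70.6 and its liver median 49.0, and brain was 1.75-fold above kidney and 2.41-fold above liver, without overlap. Liver is a known main site of this enzyme, so the brightness of the row named Alad, as restored, goes against its name. Whether the spot measured Alad RNA was not tested, and the ratios given for Alad carry that limit.

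**Figure D4:**
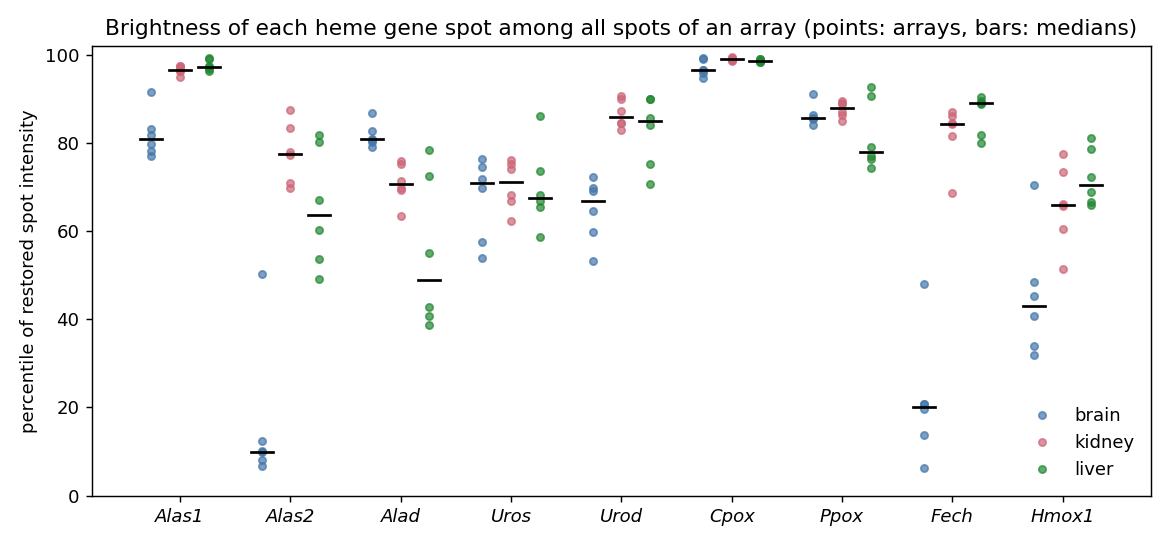
Percentile of restored spot intensity, both strains together, for the 9 genes on each array (points, coloured by tissue), with the median of 6 arrays as a bar. Alas1 and Fech lie lowest in brain, and Alad lies highest in brain (median 80.8) and lowest in liver (49.0).

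Over the 18 arrays, the named genes whose ratios ran most like those of Alad were Med10 (Pearson's r = 0.79), Stag2 (0.78), Gngt1 (0.78), Idua (0.77) and 1700021K19Rik (0.76), out of 15094. The arrays share pools and the loess step, and these values are the top of a long list.

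Partners of the pathway in and around the mitochondrion gave 3 rises and 0 falls among 14 measured genes in brain; kidney had 4 and 1, liver 1 and 2. The list medians were 0.03, 0.08 and -0.00. Over all features 13.7% were called for brain, 43.3% for kidney and 23.1% for liver, and the kidney and liver counts lay near those shares. Without brain array 2, 4, 5 or 6, or without loess, the brain count was 1, and without loess the kidney count was 8. The brain count was also 1 with dim features left out of the test. Abcb6, a porphyrin transporter gene, rose in brain (0.83 ± 0.72, adjusted p = 0.0166) and kidney (0.77 ± 0.39, adjusted p = 0.000150), on all 6 arrays of each, with a dim spot in brain (percentile 2.01), where a trended variance gave adjusted p = 0.0543. Slc25a39, a mitochondrial carrier gene, rose in kidney (0.46 ± 0.10), as did Tspo, the outer membrane translocator gene (0.94 ± 0.53, percentile 4.87, not past the threshold without loess at 0.19). Clpx, the unfoldase that activates ALAS, fell in liver (-0.69 ± 0.22, 1.61-fold) and in kidney (-0.47 ± 0.39), where array 3 stood at -1.26 and the value turned to 0.26 without loess. Tspo2, an erythroid relative of Tspo, rose in liver (0.54 ± 0.17) and in brain (0.49 ± 0.46, percentile 0.940). Its brain call ended without loess (0.20, adjusted p = 0.420) and without array 2 (0.36), 4 (0.39), 5 (0.54) or 6 (0.48). The iron-sulfur scaffold gene Iscu fell in liver (-0.50 ± 0.23), and the iron carrier gene Slc25a28 rose in brain (0.28 ± 0.20, adjusted p = 0.0443), where the call ended without array 2, 3, 4, 5 or 6, with 0.21 to 0.31, without loess (0.10) and with 1 loess per array (0.13).

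Genes of heme breakdown, binding and transport gave 1 rise and 0 falls of 18 in brain, against 5 and 5 for kidney and 4 and 2 for liver, with medians of 0.04, -0.03 and 0.11. The shares over all features were 13.7%, 43.3% and 23.1%. The liver count of 6 fell to 2 without liver array 3 and to 3 without array 1 or 6. The kidney count of 10 fell to 6 with 1 loess per array. The brain count was 2 without brain array 1, and 0 with dim features left out of the test. Hmox2, the constitutive heme oxygenase gene, rose in kidney (0.47 ± 0.27), where Hmox1 fell, and did not pass there with 1 loess per array (0.33, adjusted p = 0.108). The biliverdin reductase gene Blvra rose in kidney (0.58 ± 0.23) and liver (0.21 ± 0.10, adjusted p = 0.0354), and its liver call ended without array 1, 2, 3, 4 or 6, with 0.18 to 0.22, without loess (0.12) and with 1 loess per array (0.17). The heme transporter gene Slc48a1 rose in kidney (0.46 ± 0.09). The heme-binding protein gene Hebp1 fell in kidney (-0.70 ± 0.24) and rose in liver (0.46 ± 0.39), where array 2 stood at -0.27 and the call ended without array 1 (0.37) or 3 (0.44). In liver Pgrmc2, which encodes a heme chaperone, rose (0.41 ± 0.16), as did the folate and heme carrier gene Slc46a1 (0.60 ± 0.50, array 2 at 1.53). Pgrmc2 went the other way in kidney, where it fell (-0.275 ± 0.164, adjusted p = 0.00786). Abcc2, an export pump of conjugated bilirubin, rose in brain (0.62 ± 0.22) at a dim spot (percentile 8.68).

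Regulators of heme genes gave 1 rise and 0 falls of 22 in brain, against 6 and 4 for kidney and 2 and 3 for liver, with medians of 0.01, 0.01 and -0.00. The kidney and liver counts lay near the 43.3% and 23.1% of all features called, and the brain share over all features was 13.7%. The brain count was 2 without loess. Nr1d1, the heme-binding clock repressor REV-ERB alpha, rose in brain (0.32 ± 0.15, adjusted p = 0.0175) and kidney (0.71 ± 0.24, 1.64-fold), on all 6 arrays of each. The brain call ended without array 4 (0.32) or 6 (0.31). In kidney the xenobiotic receptor genes went apart, with Nr1i2 lower (-0.42 ± 0.26) and Nr1i3 higher (0.44 ± 0.29), but Nr1i3, at percentile 6.37, turned to -0.19 without loess and missed the threshold with the intensity left unrestored (0.22). Nrf1, an activator of mitochondrial genes, fell in kidney (-0.35 ± 0.23). In liver Bach1, the heme-sensing repressor of Hmox1, rose (0.31 ± 0.20), as did the erythroid factor gene Klf1 (0.33 ± 0.22), while Gata2 (-0.30 ± 0.14) and Hnf4a (-0.26 ± 0.11) fell. The 2 rows of Hnf4a disagreed in liver, with -0.66 and 0.14, and its liver call ended without array 6 (-0.22). Bach1 did not pass in liver without loess (0.24) or with 1 loess per array (0.24). Hnf4a went the other way in kidney, where it rose past the threshold (0.26 ± 0.15).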

How the data were processed

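The series table gives 1 log2 ratio per array for 23040 spots, as deposited. Image analysis used Spot, followed by print-tip lowess in limma, per the labels, which name no version. The deposited log2 values were not those of normalised ratios, since 100.0% of them were logs of a ratio of 2 whole numbers (tolerance 1e-12) and array medians lay off 0. They were treated as raw ratios, and spots at 0 on every array (1275) were left out.

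Continued fractions gave the intensities behind each ratio except for a common factor, chosen from the other arrays of the tissue (assumed SD 0.4, log2). This choice is not always exact. Ratios were then normalised by print-tip loess (limma 3.58.1 in R 4.3.3, span 0.3, 4 iterations, 48 blocks of 480 spots). The table gives no background or saturation for a spot. Symbols of 15964 spots were updated by Entrez identifier (RefSeq, GRCm38.p6), and rows of 1 symbol were averaged. Spots with 1 symbol numbered 16642, with several 134 and with none 4989. Names were not tested against spot sequences.

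Per tissue, the mean ratio was tested against 0 (lmFit, eBayes, Benjamini-Hochberg over 20218 features). Tissues were compared by contrasts in a fit of all 18 arrays. The 6 arrays per tissue limit the precision. The steps were tested on simulated data. Members, lists and tests were chosen with earlier results of these data known. Named genes were all 9 members, the 3 nearest neighbours of Alad on each side, up to 4 genes per list and tissue with the lowest adjusted p, the 5 most like Alad, and Glo1. Blood and macrophage markers named were chosen after their values were seen. Alternatives were other normalisations, the brightest row, a filter on dim features, a trended variance, annotation symbols, a replicate block, 12 arrays and leaving out each array.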

Additional observations from a re-analysis of the deposited data

Results flagged for a closer look

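Among 84 gene and tissue groups of 6 arrays, 9 had 1 array far from the other 5. Of the heme genes these were Hmox1 in brain (array 3 at 0.32, the others from -0.34 to -0.14), Urod in kidney (array 6 at 0.24, the others from -0.18 to -0.04) and Alas2 in liver (array 2 at -0.18, the others from 0.23 to 0.36). Of the neighbours of Alad they were Rgs3 in brain (array 2 at -0.11) and Wdr31 in kidney (array 5 at 0.48, the others from -0.07 to -0.04). The remaining 4 were Clpx in kidney (array 3 at -1.26), Slc48a1 in kidney (array 2 at 0.63), Slc46a1 in liver (array 2 at 1.53) and Hebp1 in liver (array 2 at -0.27). Liver array 2 was thus the far array for Alas2, Slc46a1 and Hebp1.

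After print-tip loess the strain ratio differed between tissues in a direct test for Alas1 (brain minus kidney 0.38), Urod (brain minus liver 0.34) and Alas2 (kidney minus liver -0.36). Without loess the differences of Alas1 and Alas2 turned to -0.23 and 0.038. That of Urod missed the threshold under each other normalisation.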

How the results depend on the processing

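In this section turned signs and turned differences are listed only where the main fit or the alternative passed the threshold. Other signs turned as well, such as that of Alas2 in kidney without loess. With nothing subtracted from the deposited values, the array medians pull most ratios below 0. Brain and liver then gave 9 members past the threshold each, all lower. Alad stood at -0.74 in brain and -0.94 in liver. Other signs turned in brain for Uros (-0.78), Urod (-0.77), Fech (-1.02), Hdhd3 (-0.69), Rgs3 (-1.02), Glo1 (-0.20), Tspo2 (-0.73), Slc25a28 (-0.83), Abcc2 (-0.37), Nr1d1 (-0.52) and Slc31a2 (-0.82), in kidney for Hdhd3 (-0.072), Rgs3 (-0.75), Tspo (-0.30), Blvra (-0.15), Nr1i3 (-0.67), Slc31a2 (-0.55) and Rnf183 (-0.22), and in liver for Alas2 (-0.98), Uros (-0.92), Wdr31 (-1.10), Bspry (-0.92), Hdhd3 (-0.72), Glo1 (-0.17), Tspo2 (-0.58), Pgrmc2 (-0.70), Slc46a1 (-0.44), Hebp1 (-0.46), Blvra (-0.99), Klf1 (-0.82), Bach1 (-0.87), Orm1 (-0.65) and Cdc26 (-0.91). Between tissues the members past the threshold were then 5 for brain and kidney, 0 for brain and liver and 9 for kidney and liver. Turned differences were Alas1 (-0.67), Alas2 (-0.91) and Fech (-1.05) for brain minus kidney, and Alad (0.87), Alas1 (1.10), Alas2 (0.67), Uros (0.86) and Hmox1 (0.64) for kidney minus liver.

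With the array median alone subtracted, 7 members passed in kidney and 0 in liver, where 13113 and 5030 of 20218 features were called. Kidney values were then 0.41 for Alad (past the threshold) and, with a turned sign, Alas1 (0.26), Urod (0.36), Rgs3 (-0.27), Clpx (0.26), Nr1i3 (-0.19) and Slc31a2 (-0.066). Between tissues 4, 0 and 5 members passed, with turned differences for Alas1 (-0.23), Alas2 (-0.47) and Fech (-0.60) in brain minus kidney, and for Alas1 (0.47) and Alas2 (0.038) in kidney minus liver. The brightest row alone turned Zfp618 in kidney (0.43). For brain and kidney 2 members passed with the intensity unrestored and 2 with 1 loess per array. For brain and liver 0 passed with the intensity unrestored, with 1 loess per array, with the brightest row, with the replicate block and in a fit of the 12 arrays of the 2 tissues. For kidney and liver 2 passed in the fit of 12 arrays, while 1 passed with the intensity unrestored and with 1 loess per array, where it was Cpox (0.27 and 0.40) and not Alas2. The cause was not tested.

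Over all features, the deposited values gave 19609 calls in brain and 20064 in liver, against 2765 and 4674, and 0.0357% and 0.0748% of them were higher, against 54.6% and 47.1% (kidney 6.23% against 50.7%). For brain and liver 1500 features differed, against 830 without loess, 867 with 1 loess per array and 70 as deposited, of which 82.9% were higher, against 56.9%. For kidney and liver 4386 differed, against 9288 without loess and 10020 as deposited, of which 99.6% were higher, against 57.1%, and for brain and kidney 1.22% were higher as deposited, against 51.1%. Leaving out 1 array gave from 1361 to 3288 calls in brain and from 2996 to 4653 in liver.

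Leaving out 1 array gave 0 to 2 members in liver, 0 to 1 for brain and liver, and 0 to 2 for kidney and liver. The replicate block left the Urod difference at 0.34 (adjusted p = 0.0618). Deviations of same-numbered arrays correlated by -0.23 to 0.16, and 2 of 18 pairs exceeded 0.1. Arrays of unlike number were not compared, so these values cannot decide whether same-numbered arrays shared a batch. The ratios of the dim spots of Alas2 and Fech in brain were left out by the filter on dim features. No background signal is in the table, so how far a dim spot lies above background is unknown.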
